A study of Mus musculus with 9 samples.

Results

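The genes of respiratory complexes II to V were followed in hindlimb skeletal muscle of neonatal mice at postnatal day (P) 2, P7 and P14. Members were the genes measured by a probe set with a single gene symbol and with the symbol Sdha to Sdhd, Cyc1 or Cycs, or a symbol beginning with Uqcr, Atp5, Cox5, Cox6b, Cox6c, Cox7b, Cox7c or Cox7a2l. A gene with several such probe sets was represented by the one of highest mean over the 9 arrays, and 40 of 22180 genes were members. They comprised 4 subunits of complex II, 8 of complex III, 7 genes of complex IV, 17 genes of complex V, the carrier gene Cycs, the linking gene Cox7a2l, and the pseudogenes Atp5c1-ps and Uqcrh-ps1. The complex IV genes included Cox6b2 and Cox7b2, which encode testis isoforms, so 34 members were counted as subunits of the somatic complexes. Cox6c and Uqcr10 were read only by probe sets that carry several symbols and were not analysed here.

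The 3 groups differed by age alone as far as the labels state: mice aged P2, P7 and P14, strain given as mixed, with no treatment or allele named and 3 biological replicates at each age. Total RNA of the muscle was hybridised to expression arrays, 1 array a sample. The labels do not say if a replicate was a single animal or a pool. A p-value here therefore sets a difference between ages against the spread of these samples only. That spread may in part be technical, and 3 arrays an age limit the precision.

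Complexes II to V sit in the inner mitochondrial membrane. Complex II, succinate dehydrogenase, passes electrons from the citric acid cycle to coenzyme Q. Complex III passes them on to cytochrome c, complex IV (cytochrome c oxidase) gives them to oxygen, and complexes III and IV pump protons as they do so. Complex V, the ATP synthase, lets the protons flow back through its membrane part, F0, and makes ATP in its head, F1. Skeletal muscle relies on this chain for sustained contraction, and its oxidative capacity is built up after birth. All members are nuclear genes; the subunits encoded by mitochondrial DNA are not among them.

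Values are log2 intensities, and a difference of 1 is a doubling. They do not compare 1 gene with another, because each probe set has its own affinity. The array medians lay between 3.29 and 3.36, and replicates correlated across genes at no less than 0.953 at P2, 0.967 at P7 and 0.981 at P14. Dim genes were judged against 1434 smell and taste receptor genes, whose 95th percentile was 3.43. Of the members 37 lay above this level in at least 1 age, and Cox7b2 and both pseudogenes did not. Markers of skeletal muscle were bright at each age, with a mean over the 6 marker genes that ran from 9.19 to 9.61 on the P2 arrays, from 9.70 to 9.81 on the P7 arrays and from 10.16 to 10.28 on the P14 arrays.

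The P2 replicates were uneven for these genes. The 34 subunits had a median SD of 0.356 at P2, 0.191 at P7 and 0.097 at P14, beside 0.251, 0.203 and 0.163 for all genes. P2 replicate 1 was the lowest of the 9 arrays for 23 of the 34 subunits, against 18.9% of the genes above the receptor level. P2 replicate 2 was the lowest for 20.5% of those genes but for only 3 of the 34 subunits. The mean of the skeletal muscle markers was also lowest on P2 replicate 1, at 9.19 against 9.61 and 9.53 on the other P2 arrays. Its part in the results was not tested, and the counts of members, complexes and related gene lists called over the span are given with and without that array.

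By P14 most of these genes stood above their P2 level. Of the 40 members 23, or 57.5%, rose from P2 to P14 and none fell (limma, Benjamini-Hochberg adjusted p under 0.05 over all genes), beside 6.63% of all genes that rose. Among the 13239 genes above the receptor level 10.7% rose. The members' median change was 0.69, while that of all genes was 0.01 and that of the genes above the receptor level 0.07. All 3 P14 arrays lay above all 3 P2 arrays for 29 members, or 72.5%, against 16.2% of all genes. Without P2 replicate 1, 14 members rose (35% beside 4.34% of all genes) and the median change was 0.57. Without P14 replicate 1, 2 or 3 the counts were 12, 14 and 15, beside 3.89%, 3.77% and 4.11% of all genes.

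The rise was called over the whole span more often than over either part of it. From P2 to P7, over 5 days, no member was called (limma), with 0.329% of all genes called in either direction, and 7 members (17.5%) had an unadjusted p under 0.05, beside 12.8% of all genes. The smallest adjusted p was 0.0804, for Atp5h, and the members' median change was 0.23. For 6 members all 3 P7 arrays lay above all 3 P2 arrays, or 15%, against 7.3% of all genes. From P7 to P14, over 7 days, Uqcrc1 and Cycs rose, which is 5.0% of the members beside 1.72% of all genes. In that interval 22 members (55%) had an unadjusted p under 0.05, beside 14.6% of all genes. The median change was 0.42, and 27 members (67.5%) had all 3 P14 arrays above all 3 P7 arrays, against 14.8% of all genes. Without P2 replicate 1, which leaves these changes as they are and alters the shared estimate of spread, 7 members rose from P7 to P14: Uqcrc1, Cyc1, Cycs, Cox5a, Cox6b1, Cox7b and Atp5mpl, or 17.5% beside 2.19% of all genes. Without P14 replicate 1 none did, and without any other P14 array or any P7 array 1 did.

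Whether the change differed between the intervals was tested directly. No member was called for the later change minus the earlier one (limma), beside 0.194% of all genes, and 1 member, Uqcrc1, had an unadjusted p under 0.05, or 2.5% beside 8.12% of all genes. Its later change exceeded its earlier one by 0.80 (95% interval 0.13 to 1.46, adjusted p = 0.517). These values do not show that the intervals were alike. The intervals share the P7 arrays and last 5 and 7 days.

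**Figure D1:**
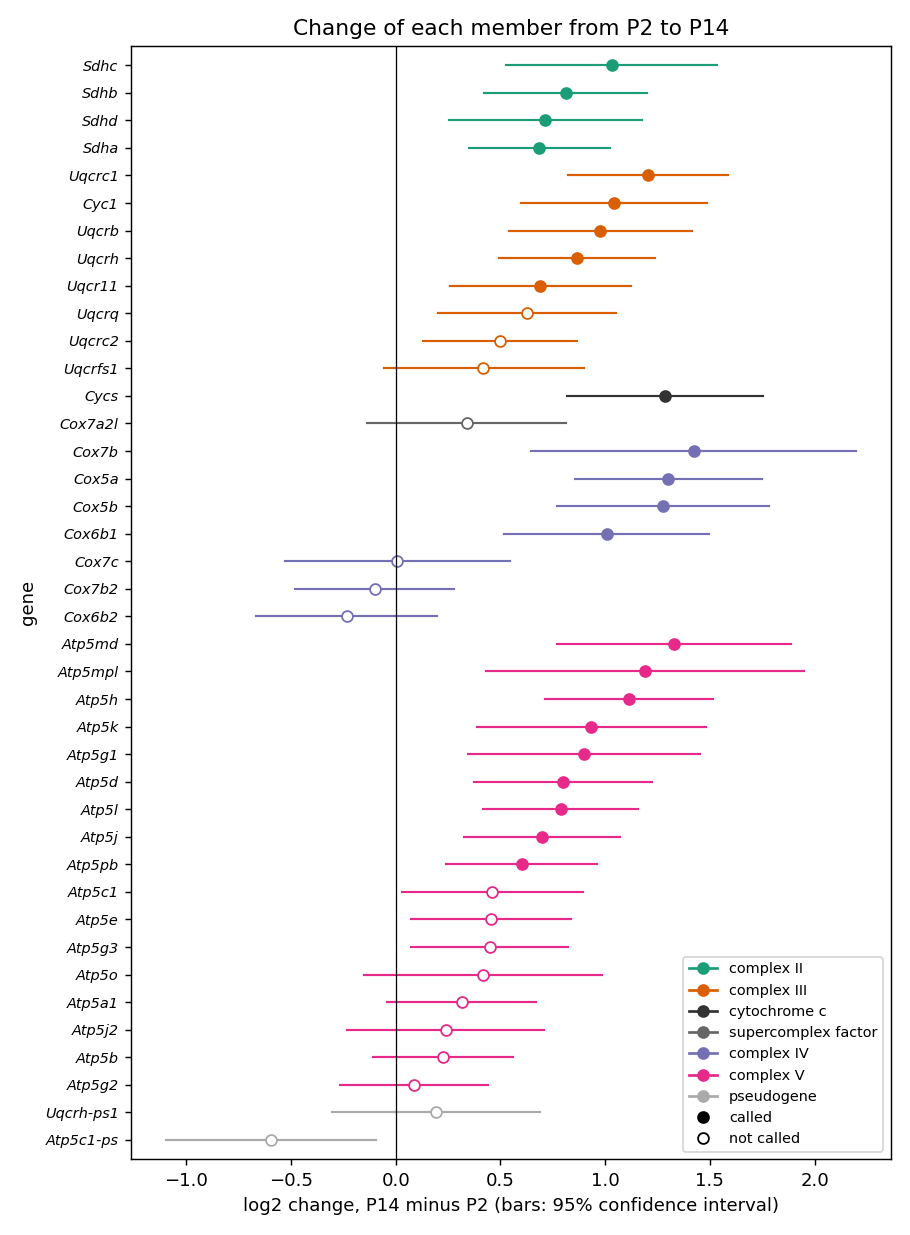
Log2 change from P2 to P14 for each of the 40 members, ordered by complex, with 95% confidence intervals of the moderated fit; filled circles mark members called at an adjusted p under 0.05. All 4 complex II genes are filled, complex V runs from 0.09 (Atp5g2) to 1.33 (Atp5md), and the testis isoforms and pseudogenes are open.

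A few promoters are shown as examples: Uqcrc1, Cycs, Atp5g2 and Uqcrh with a motif match, and Cox5a without. These examples do not represent the members at large, and a part of the motifs in the changes was not tested. The sequences come from RefSeq (GRCm38.p6), 5′ to 3′ on the gene's strand. They run from 250 bases before the annotated gene start to 50 after it. A promoter was available for 31 of the 40 members. Capitals mark a match to the core of a nuclear respiratory factor 1 (NRF1) motif in Uqcrc1, Cycs and Atp5g2 and of an ETS family motif in Uqcrh. Cox5a, which rose, held no match to any motif searched and has no capitals.
Uqcrc1, chr9:108936398-108936697, plus strand: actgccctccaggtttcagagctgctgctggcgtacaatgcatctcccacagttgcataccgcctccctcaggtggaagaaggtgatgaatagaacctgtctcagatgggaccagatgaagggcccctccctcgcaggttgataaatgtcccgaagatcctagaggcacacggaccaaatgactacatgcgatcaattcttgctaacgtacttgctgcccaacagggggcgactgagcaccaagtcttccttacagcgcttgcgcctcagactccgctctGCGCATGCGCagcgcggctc
Cycs, chr6:50566520-50566819, minus strand: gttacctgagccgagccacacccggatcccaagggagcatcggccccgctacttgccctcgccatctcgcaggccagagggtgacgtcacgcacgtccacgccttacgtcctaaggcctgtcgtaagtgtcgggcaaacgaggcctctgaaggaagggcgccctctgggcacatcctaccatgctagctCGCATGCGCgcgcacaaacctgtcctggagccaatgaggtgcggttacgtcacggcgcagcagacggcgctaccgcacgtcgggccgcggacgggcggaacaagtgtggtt
Atp5g2, chr15:102670998-102671297, minus strand: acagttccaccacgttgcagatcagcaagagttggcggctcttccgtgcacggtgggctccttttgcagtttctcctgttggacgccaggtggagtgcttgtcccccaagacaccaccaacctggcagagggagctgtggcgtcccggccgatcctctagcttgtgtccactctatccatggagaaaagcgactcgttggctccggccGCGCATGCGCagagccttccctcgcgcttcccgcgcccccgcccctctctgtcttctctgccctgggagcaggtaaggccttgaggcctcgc
Uqcrh, chr4:116075021-116075320, minus strand: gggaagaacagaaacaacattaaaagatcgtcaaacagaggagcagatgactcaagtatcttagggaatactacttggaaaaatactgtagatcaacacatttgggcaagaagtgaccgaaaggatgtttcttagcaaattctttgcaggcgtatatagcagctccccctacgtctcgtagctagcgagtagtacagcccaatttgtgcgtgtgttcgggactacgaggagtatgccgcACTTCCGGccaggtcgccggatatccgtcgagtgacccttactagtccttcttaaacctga
Cox5a, chr9:57520982-57521281, plus strand: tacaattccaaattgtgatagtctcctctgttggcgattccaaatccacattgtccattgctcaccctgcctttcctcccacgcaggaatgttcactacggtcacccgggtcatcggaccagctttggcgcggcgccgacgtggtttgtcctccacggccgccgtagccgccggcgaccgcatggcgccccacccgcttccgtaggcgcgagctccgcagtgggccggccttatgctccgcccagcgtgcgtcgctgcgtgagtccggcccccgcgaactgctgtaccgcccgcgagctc

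In Uqcrc1 the match lies after the gene start, and in Cycs, Atp5g2 and Uqcrh before it. The search used exact letters on both strands: GCGCATGCG for NRF1, CCGGAAGT for ETS factors, TCAAGGTCA for oestrogen-related receptors (ERR) and AAGATGGC for YY1, which are all known to act on nuclear genes of the chain. NRF1 letters overlap their own reverse complement, so the run of matched bases in Uqcrc1 and Atp5g2 counts on both strands. They stood in 6 of the 31 member promoters (19.4%: Atp5g2, Atp5k, Atp5l, Cycs, Uqcr11 and Uqcrc1) and in 1.95% of 27025 promoters of all genes. ETS letters stood in 3 (9.68%: Atp5h, Uqcr11 and Uqcrh) against 4.31%. ERR letters stood in 2 (6.45%: Atp5g3 and Sdhd) against 0.466% of all. YY1 letters stood in 3 (9.68%: Atp5j, Atp5j2 and Atp5pb) against 3.19%. These shares are descriptions of letters in a window and depend on it. With 150 bases before the start alone, the NRF1 letters stood in 3 member promoters (9.68%: Atp5g2, Atp5k and Cycs) against 1.36% of all, and no longer in Uqcrc1, Uqcr11 or Atp5l. Of the 6 genes with the NRF1 letters, 5 rose from P2 to P14 and Atp5g2, whose change was 0.09, did not pass. Among all members, with or without a promoter available, 57.5% rose. With an array left out, Uqcrc1, Cycs and Atp5l kept their calls in each limma fit, but Uqcr11 in only 3 fits and Atp5k in 5. Whether genes with the letters rose more often than other members was not tested.

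Among the genes that the symbols admit, those of cytochrome c oxidase had the largest median change and those of ATP synthase the smallest over the whole span. From P2 to P14 the median over subunits was 0.76 for complex II (4 genes), 0.78 for complex III (8), 1.28 for complex IV (5) and 0.60 for complex V (17). The counts that rose were 4 of 4, 5 of 8, 4 of 5 and 9 of 17. From P7 to P14 the medians were 0.56, 0.50, 0.69 and 0.34. From P2 to P7 they were 0.23, 0.20, 0.54 and 0.24. The difference between complexes was not tested, since subunits of a complex are not replicates. The complex IV figure rests on 5 genes. A list of 8 other nuclear oxidase genes, described further on, had a median of 0.49 over the span, below that of complex V. For each pair of ages 10 of the alternatives tried move these medians. Complex IV kept the largest of the 4 in each of those 10, and complex V the smallest in each for P14 against P2 and against P7 but in none for P7 against P2.

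The medians are also given by array. All arrays are set against the same P2 mean of each gene, so the array values restate the order above and do not test it. With each gene set to its own P2 mean, the complex IV median was 1.37, 1.25 and 1.18 on P14 replicates 1, 2 and 3, and the complex V median was 0.69, 0.59 and 0.53. Complex II gave 0.92, 0.67 and 0.76, and complex III 0.83, 0.77 and 0.80, so these complexes overlapped at P14. All 3 arrays of complex IV lay above all arrays of the other complexes at that age. At P2 the complex IV medians were -0.54, 0.15 and 0.46, the widest spread of the 4. Without P2 replicate 1 the P14 minus P2 medians were 0.71, 0.70, 0.81 and 0.52 for complexes II, III, IV and V, so complex IV moved most, and 2, 4, 4 and 3 of their genes rose.

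**Figure D2:**
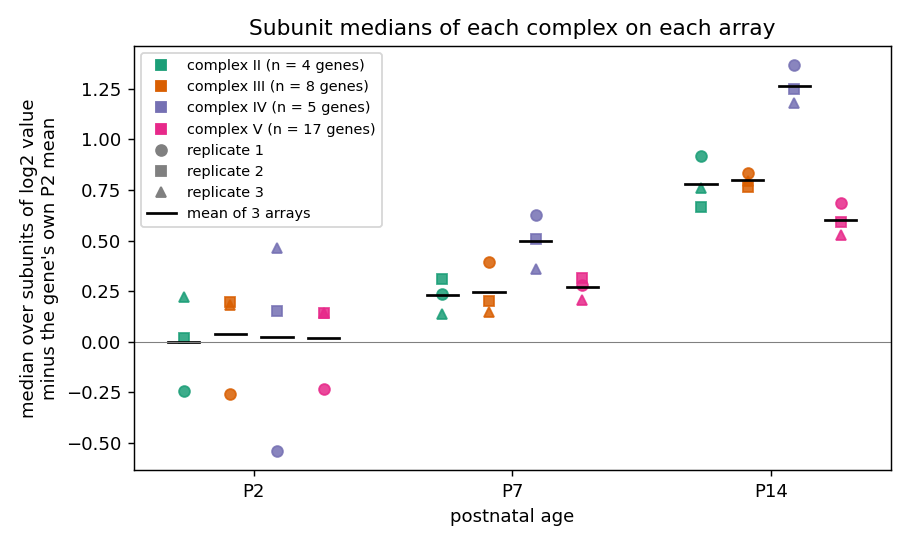
Median over the subunits of each complex of the log2 value minus the gene's own P2 mean, on each of the 9 arrays; colours give the complex, shapes the replicate and bars the mean of 3 arrays. At P14 complex IV lies between 1.18 and 1.37 and complex V between 0.53 and 0.69, and P2 replicate 1 is the lowest array of each complex.

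All 4 subunits of succinate dehydrogenase rose from P2 to P14. Sdha, the flavoprotein that oxidises succinate, read 7.93, 8.15 and 7.87 at P2, 8.25, 8.27 and 8.17 at P7, and 8.69, 8.67 and 8.64 at P14. The 3 ages did not overlap for this gene, and it rose by 0.685 ± 0.157 (SE), a 1.61-fold change (adjusted p = 0.0114, limma). Sdhb, the iron-sulphur protein that hands electrons on, read 6.43, 6.38 and 6.83 at P2, 6.76, 6.88 and 6.64 at P7, and 7.56, 7.19 and 7.32 at P14. Its P2 and P7 arrays overlapped and its P14 arrays stood above both, with a rise of 0.81 ± 0.18 over the span (adjusted p = 0.00985).

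Sdhc and Sdhd anchor complex II in the membrane and form its coenzyme Q site. Sdhc read 6.05, 6.29 and 6.92 at P2, 7.03, 6.67 and 6.98 at P7, and 7.82, 7.15 and 7.39 at P14, and rose by 1.03 ± 0.24 (adjusted p = 0.0110). Sdhd read 6.55, 7.21 and 7.11 at P2, 6.92, 7.51 and 6.93 at P7, and 7.77, 7.53 and 7.70 at P14, and rose by 0.71 ± 0.21 (adjusted p = 0.0461). In both genes P2 and P7 overlapped and P14 lay above. In limma fits with 1 array left out, Sdha kept its call each time. Sdhb lost it without P14 replicate 1 (adjusted p = 0.0593), and Sdhc without P2 replicate 1 (0.0547) or P14 replicate 1 (0.0658). Sdhd kept it only without P2 replicate 2 or P7 replicate 2, with a highest adjusted p of 0.180 without P2 replicate 1.

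In complex III the rise included a core protein, cytochrome c1 and small subunits. Uqcrc1, a core protein on the matrix side, read 7.63, 8.04 and 7.87 at P2, 8.29, 7.85 and 8.02 at P7, and 9.17, 9.04 and 8.96 at P14. The P2 and P7 arrays overlapped, and the P14 arrays stood well above both. It rose by 1.21 ± 0.18 from P2 to P14, or 2.31-fold (adjusted p = 0.00057), and by 1.0 ± 0.18 from P7 to P14 (adjusted p = 0.0074, and 0.0517 without P14 replicate 1). Its promoter is one of those printed above with the NRF1 letters. The other core protein gene, Uqcrc2, did not pass over the span (0.50, 95% interval 0.13 to 0.87, adjusted p = 0.0811).

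Cyc1 encodes cytochrome c1, the haem protein that reduces cytochrome c. It read 5.95, 6.78 and 6.70 at P2, 6.82, 6.72 and 6.89 at P7, and 7.56, 7.41 and 7.57 at P14. P2 replicate 1 was low by itself, P7 overlapped the other P2 arrays, and P14 lay above all. The rise over the span was 1.04 ± 0.21 (adjusted p = 0.00487), and 0.78 without P2 replicate 1 (adjusted p = 0.0150, limma). Uqcrfs1, the Rieske iron-sulphur protein, read 5.04, 5.10 and 5.35 at P2, 5.39, 5.22 and 4.58 at P7, and 5.26, 5.67 and 5.82 at P14. Its ages overlapped, and its change of 0.42 was the smallest in complex III, with an interval of -0.06 to 0.90 (adjusted p = 0.274).

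Among the small subunits, Uqcrb, which lies close to the cytochrome b core, read 9.46, 10.17 and 10.27 at P2, 10.41, 10.60 and 10.60 at P7, and 10.99, 10.94 and 10.91 at P14. The hinge protein gene Uqcrh, which helps cytochrome c1 meet cytochrome c, read 6.51, 6.83 and 7.08 at P2, 7.26, 7.24 and 7.31 at P7, and 7.74, 7.70 and 7.58 at P14. In both genes each age lay above the one before on every array. Uqcrb rose by 0.98 ± 0.20 over the span (adjusted p = 0.00656) and Uqcrh by 0.87 ± 0.17 (adjusted p = 0.00528), and neither call depended on a single array (limma). Uqcr11 also rose over the span (0.69, adjusted p = 0.0412), though its call was lost without P2 replicate 1 or 2, P7 replicate 3 or any P14 array (adjusted p up to 0.147). Uqcrq did not pass (0.63, adjusted p = 0.0570).

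Cycs encodes cytochrome c, the soluble carrier between complexes III and IV, which also has a known role in apoptosis. It read 9.07, 10.04 and 9.54 at P2, 9.72, 10.09 and 9.89 at P7, and 10.82, 10.85 and 10.84 at P14. P2 and P7 overlapped, and the 3 P14 arrays were within 0.03 of each other and above the rest. Cycs rose by 1.28 ± 0.22 from P2 to P14, or 2.44-fold (adjusted p = 0.00161). It rose by 0.94 ± 0.22 from P7 to P14 (adjusted p = 0.0370), but each single P7 or P14 array was needed for this call (highest adjusted p 0.140, with P14 replicate 2 removed). That call was also lost with cyclic loess (adjusted p = 0.0598, limma) or quantile scaling (0.0816). The change from P2 to P7 did not pass (0.35, adjusted p = 0.537). Cycs had 5 probe sets, 2 of them with identical values, and their P14 minus P2 changes ran from 0.75 to 1.504. Cox7a2l, a factor of respiratory supercomplexes that joins complexes III and IV, showed overlapping ages, with 5.20 to 5.95 in the P2 group, 5.6 to 6.08 in the P7 group and 5.58 to 6.12 in the P14 group (0.34, interval -0.14 to 0.81, adjusted p = 0.391).

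In cytochrome c oxidase 4 of 5 nuclear subunits rose from P2 to P14. Cox5a, a subunit that faces the matrix, read 6.97, 7.62 and 7.73 at P2, 8.20, 7.95 and 7.80 at P7, and 8.89, 8.69 and 8.65 at P14. The ages did not overlap on any array. Cox5a rose by 1.302 ± 0.208 over the span, or 2.47-fold (adjusted p = 0.00101), and by 1.07 without P2 replicate 1 (adjusted p = 0.00378, limma). Cox5b, the zinc-binding subunit, read 7.30, 7.86 and 8.35 at P2, 8.61, 8.11 and 8.53 at P7, and 9.20, 9.12 and 9.02 at P14. Its P2 arrays were spread over a doubling, P7 overlapped them, and P14 lay above (1.28 ± 0.24, adjusted p = 0.00291).

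Cox6b1, a subunit on the side where cytochrome c docks, read 7.19, 7.96 and 8.27 at P2, 8.20, 8.17 and 8.02 at P7, and 8.80, 8.85 and 8.78 at P14. It rose by 1.007 ± 0.228 (adjusted p = 0.0106), and by 0.70 without P2 replicate 1 (adjusted p = 0.0313, limma). Cox7b, a small subunit needed for assembly of the complex, read 6.49, 8.18 and 8.47 at P2, 8.34, 8.54 and 8.24 at P7, and 9.23, 9.08 and 9.11 at P14. Here P2 replicate 1 lay far below all other arrays. Cox7b rose by 1.42 ± 0.36, and by 0.81 without that array (adjusted p = 0.0173), and the call was lost without any single P14 array (adjusted p up to 0.0728, limma).

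The remaining complex IV genes gave no call. Cox7c, a small subunit at the membrane, read 4.07, 3.82 and 3.24 at P2, 3.39, 4.34 and 3.84 at P7, and 3.80, 3.52 and 3.83 at P14. Its ages overlapped entirely, close to the receptor level, and its change was 0.01 (interval -0.53 to 0.55, adjusted p = 0.991). The testis isoform genes Cox6b2 and Cox7b2 differed by -0.24 and -0.10 over the span (adjusted p = 0.531 and 0.786). At P7 the dim gene Cox7b2 was the only member whose 3 arrays all lay below those of P2, at 1.22 to 1.70 against 1.70 to 1.81 (the values at 1.70 differ before rounding). The share of all genes with that order was not counted.

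**Figure D3:**
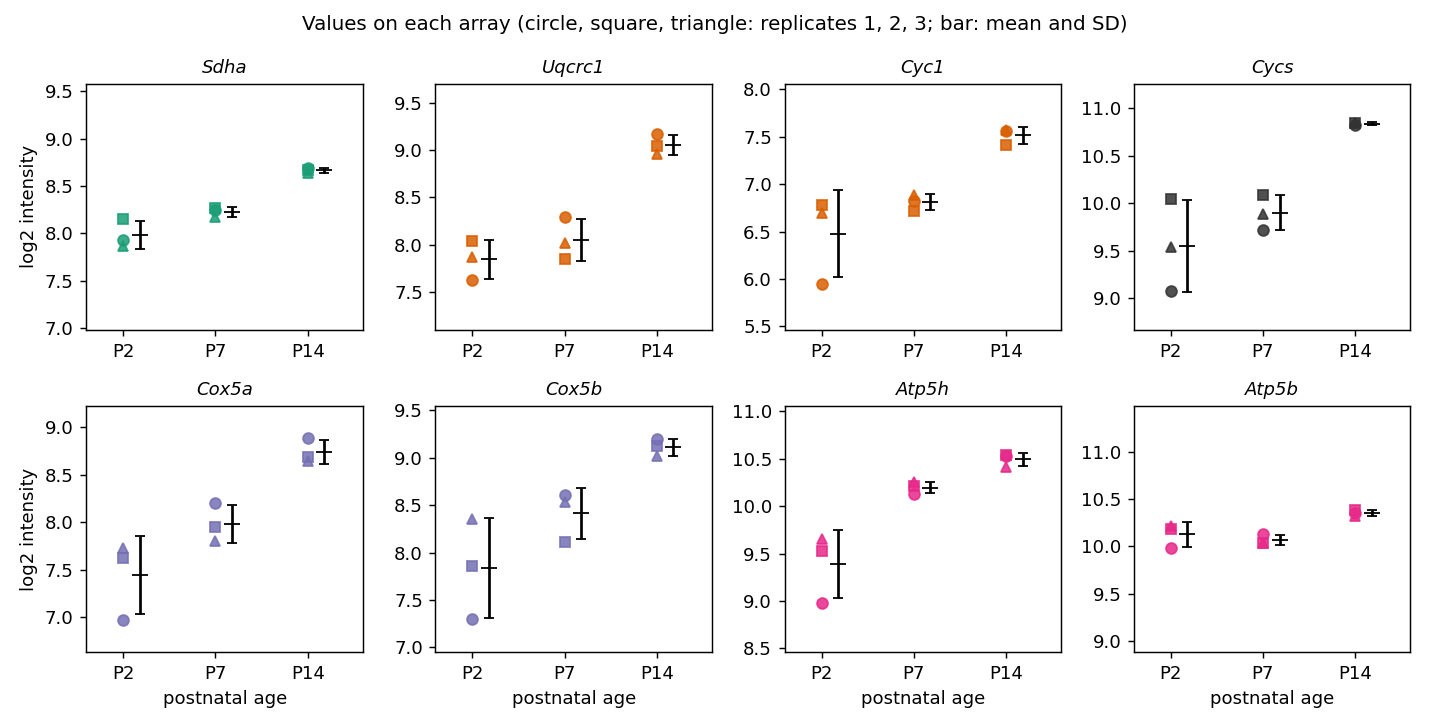
Log2 intensity on each array for 8 members at P2, P7 and P14, with bars for mean and SD of 3 arrays; each panel spans the same number of log2 units but starts at its own value. The 3 ages do not overlap for Sdha, Cox5a and Atp5h, the P14 arrays of Uqcrc1 and Cycs lie above all others, and Atp5b lies between 9.98 and 10.39 throughout.

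In ATP synthase 9 of 17 genes rose over the span, and the parts of the enzyme differed in their counts. In the F1 head 1 of 5 genes rose, among the c subunit genes of the rotor 1 of 3, in the stator 3 of 4, and among the other F0 subunits 4 of 5. The medians of these parts were 0.46, 0.45, 0.65 and 0.93. Without P2 replicate 1 the counts were 0, 0, 1 and 2, and the medians 0.33, 0.36, 0.58 and 0.61. The difference between the parts was not tested.

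In the catalytic head the delta subunit gene alone passed. Atp5b, the beta subunit that makes ATP, read 9.98, 10.18 and 10.22 at P2, 10.13, 10.04 and 10.04 at P7, and 10.35, 10.39 and 10.32 at P14. All P14 arrays lay above the rest, but the change was 0.23 ± 0.16 with an interval of -0.11 to 0.56 (adjusted p = 0.414). Atp5a1, the alpha subunit that alternates with it, differed by 0.32 (interval -0.04 to 0.67, adjusted p = 0.269). The gamma and epsilon subunits of the central stalk, Atp5c1 and Atp5e, differed by 0.46 each (adjusted p = 0.175 and 0.126). Atp5d, the delta subunit of the stalk, read 6.12, 6.08 and 6.74 at P2, 6.73, 6.39 and 6.52 at P7, and 7.26, 7.07 and 6.99 at P14, and rose by 0.80 ± 0.20 (adjusted p = 0.0180, and up to 0.0853 without P2 replicate 1 or 2 or P14 replicate 1 or 2).

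The stator holds the head still while the rotor turns. Atp5h, its d subunit, read 8.98, 9.53 and 9.65 at P2, 10.13, 10.21 and 10.25 at P7, and 10.53, 10.54 and 10.41 at P14. The ages did not overlap. Its change from P2 to P7 was 0.81 ± 0.19, the largest of the members in that interval, and narrowly missed the threshold (adjusted p = 0.0804, limma). The P14 minus P7 change was 0.30 ± 0.19 (adjusted p = 0.522). Over the span Atp5h rose by 1.11 ± 0.19, or 2.16-fold (adjusted p = 0.0015). A second, dimmer probe set of Atp5h gave 0.09 from P2 to P7 and 0.60 over the span. Atp5j (coupling factor 6) rose by 0.70 (adjusted p = 0.0181) and Atp5pb (the b subunit) by 0.60 (adjusted p = 0.0336), and each lost its call without P2 replicate 1 or any single P14 array, Atp5pb also without P2 replicate 3 (adjusted p up to 0.0780 and 0.138). Atp5o, which encodes the protein that caps the head, did not pass (0.42, adjusted p = 0.376).

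Several small membrane subunits of F0 rose. Atp5md, also known for its part in joining ATP synthase into dimers, read 7.85, 8.59 and 9.18 at P2, 9.20, 9.44 and 9.08 at P7, and 9.75, 9.98 and 9.88 at P14. P2 and P7 overlapped through 1 array each, and P14 lay above. Its rise of 1.33 ± 0.26, or 2.51-fold, was the largest in complex V (adjusted p = 0.00433), and it was 0.98 without P2 replicate 1 (adjusted p = 0.0128, limma). Atp5l, the g subunit at the dimer interface, read 8.31, 8.76 and 8.75 at P2, 9.11, 9.0 and 8.89 at P7, and 9.42, 9.45 and 9.31 at P14. Its ages did not overlap, and it rose by 0.79 ± 0.17 (adjusted p = 0.00882).

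Atp5k, the e subunit, rose by 0.93 over the span (adjusted p = 0.0293) and Atp5mpl by 1.19 (adjusted p = 0.0439). On P2 replicate 1 they read 5.30 and 5.98, against 6.40 and 7.59 on P2 replicate 2 and 6.45 and 7.85 on P2 replicate 3. Both calls were lost without that array, without any single P14 array, and for Atp5mpl without any single P7 array too (adjusted p up to 0.108 for Atp5k and 0.139 for Atp5mpl, limma). The f subunit gene Atp5j2 had overlapping ages, close to the receptor level, and did not pass (0.24, adjusted p = 0.564).

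The c ring of the rotor is encoded by Atp5g1, Atp5g2 and Atp5g3, which differ in their targeting peptides and give the same mature protein. Atp5g1 read 3.20, 3.97 and 4.31 at P2, 3.78, 4.06 and 4.46 at P7, and 4.91, 4.72 and 4.54 at P14. Atp5g2 read 8.82, 9.22 and 9.12 at P2, 9.12, 9.12 and 9.06 at P7, and 9.06, 9.23 and 9.12 at P14. Atp5g3 read 6.91, 7.01 and 7.30 at P2, 7.02, 7.39 and 7.35 at P7, and 7.45, 7.51 and 7.60 at P14. For Atp5g1 and Atp5g3 the P14 arrays lay above all others, while for Atp5g2 the ages overlapped.

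Atp5g1 rose by 0.90 ± 0.26 over the span (adjusted p = 0.0370). Its values were dim at P2, with a mean of 3.825 and P2 replicate 1 at 3.20, below the receptor level of 3.43. The call was lost without P2 replicate 1, P7 replicate 2 or any P14 array, with an adjusted p of 0.147 without P2 replicate 1 and 0.141 without P14 replicate 1. Atp5g3 did not pass (0.45 ± 0.17, adjusted p = 0.125). Atp5g2 had the smallest change in complex V, 0.09 ± 0.16, with an interval of -0.27 to 0.44 that leaves out a doubling (adjusted p = 0.804). Its second probe set gave 0.06.

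Whether the 3 genes changed unequally was tested on their differences within each array, over all assignments of arrays to ages (exact permutation test of the F statistic, smallest possible p 0.00357). The difference Atp5g1 minus Atp5g2 was 0.81 higher at P14 than at P2 (exact p = 0.075, adjusted over the 3 pairs p = 0.15). For Atp5g1 minus Atp5g3 the shift was 0.45 (exact p = 0.261, adjusted p = 0.261), and for Atp5g2 minus Atp5g3 it was -0.36 (exact p = 0.1, adjusted p = 0.15). None of the 3 pairs passed, so an unequal change of the c subunit genes was not shown.

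**Figure D4:**
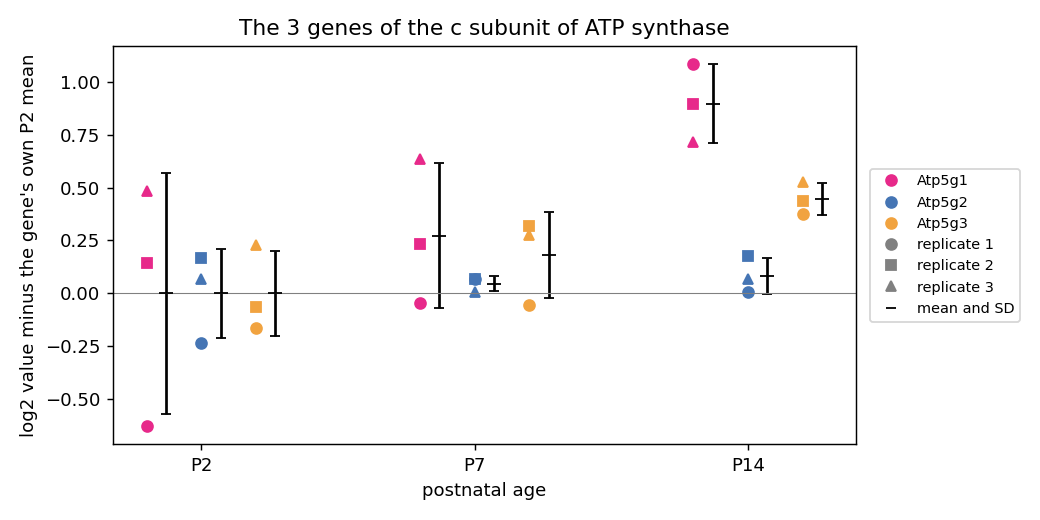
Log2 value minus the gene's own P2 mean for the 3 c subunit genes on each array; shapes give the replicate and bars the mean and SD of 3 arrays. At P14 Atp5g1 lies highest, Atp5g3 in between and Atp5g2 near 0, while P2 replicate 1 is the lowest Atp5g1 point.

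Of the 23 members that rose from P2 to P14, 12 kept the call in limma fits without any 1 of the 9 arrays: Sdha, Cyc1, Uqcrc1, Uqcrh, Uqcrb, Cycs, Cox5a, Cox5b, Cox6b1, Atp5h, Atp5l and Atp5md. Each of complexes II to V is represented among them. Under the 7 other settings 16 of the 23 kept it. How many of all genes that rose kept the call in these fits was not counted. Sdha lost it with cyclic loess, Atp5g1 with quantile scaling, Uqcr11, Atp5k, Atp5mpl and Atp5pb with both of these, and Sdhd with both and with arrays centred on their medians. The pseudogenes, which are no part of any complex, did not pass (Atp5c1-ps -0.60, adjusted p = 0.129; Uqcrh-ps1 0.19, adjusted p = 0.675).

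Genes that help to build the complexes rose as well. Of 30 measured assembly factors of complexes II to V (33 in the list), 17 rose from P2 to P14 and none fell, with a median of 0.62. For this list and those below, the share of all genes that rose was 6.63% over the span and 1.72% from P7 to P14. With an array left out these shares ran from 3.77% to 7.52% and from 0.568% to 2.5%. Over the span 977 of 22180 genes fell, against 1318 with cyclic loess and 1176 with quantile scaling. Coa5, which acts in cytochrome oxidase assembly, rose by 1.22 (adjusted p = 0.000225), Ttc19, which acts on complex III, by 1.22 (adjusted p = 0.000271), and Uqcc1, which helps to make cytochrome b, by 1.24 (adjusted p = 0.00125). From P7 to P14 Taco1, a translational activator for a mitochondrially encoded oxidase subunit, rose by 1.43, Ttc19 by 1.05 and the haem lyase gene Hccs, which attaches haem to cytochrome c, by 0.90. The Hccs call in that interval was lost without P14 replicate 2 or 3 and without P7 replicate 3 (highest adjusted p 0.0708, limma), and with an array left out 2 to 7 assembly factors rose from P7 to P14 (7 without P2 replicate 2, 5 without P2 replicate 1). The means of Taco1 and Hccs were lower at P7 than at P2, by 0.525 and 0.28, and neither difference was called. Over the span Taco1 rose by 0.90 and Hccs by 0.62, calls lost in 3 and 4 of the 9 fits with an array left out. Without P2 replicate 1, and likewise without P14 replicate 2, 8 of the 30 assembly factors rose over the span, and with cyclic loess or quantile scaling 12 did.

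Complex I feeds electrons into the same pool. Of 33 measured genes listed for it by their Nduf symbols, 26 rose over the span, with a median of 0.84. The counts were 18 without P2 replicate 1 and 17 without P14 replicate 1. The list includes Ndufa4 (1.14, adjusted p = 0.00499, limma), which has also been assigned to cytochrome c oxidase. Of 11 genes of coenzyme Q synthesis 8 rose, with a median of 0.755. They included Coq5, a methyltransferase of the pathway (1.76, adjusted p = 6.26e-05), and the count was 6 without P2 replicate 1 and 5 without P14 replicate 3. The ATP synthase inhibitor gene Atpif1 showed no call, with a difference of -0.001 (adjusted p = 0.999).

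Other cytochrome oxidase genes, which the symbols above leave out, include pairs of isoforms. Of 8 such genes listed, 3 rose over the span, with a median of 0.49, and 3 without P2 replicate 1. The muscle and heart isoform genes Cox7a1, Cox8b and Cox6a2 rose by 2.17 (adjusted p = 0.000118), 1.34 (0.00131) and 1.09 (0.00896), all by limma and with any array left out. Their ubiquitous partners Cox7a2, Cox8a and Cox6a1 differed by 0.48, -0.11 and -0.52 and did not pass (adjusted p = 0.251, 0.752 and 0.122). With cyclic loess or quantile scaling 1 of the 8 genes of this list, Cox6a1, was called lower. Cox4i1, a nuclear subunit gene of the oxidase, differed by 0.49 (adjusted p = 0.0697, limma). Its isoform partner Cox4i2, close to the receptor level, differed by 0.20 (adjusted p = 0.555, limma). The difference between the isoforms of a pair was not tested.

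Genes used as measures of mitochondrial content rose in 3 of 9 cases (2 without P2 replicate 1), with a median of 0.49. These were Slc25a4, the ADP/ATP carrier of muscle (1.07, adjusted p = 0.00416), Cs, the citrate synthase (0.91, adjusted p = 0.00495), and Vdac3, a pore of the outer membrane (0.72, adjusted p = 0.0210). The Vdac3 call was lost without P2 replicate 1 or any single P14 array, and with cyclic loess or quantile scaling (adjusted p up to 0.349). Among 16 regulators of respiratory genes 3 rose and 1 fell, and without P2 replicate 1 the counts were 2 and 0. Ppargc1a, a coactivator of mitochondrial genes, rose by 1.12 (adjusted p = 0.00161), and by 0.86 from P7 to P14 (adjusted p = 0.0274, up to 0.154 without P14 replicate 2 or 3 or any P7 array, and also lost with cyclic loess or quantile scaling). Esrrg and Esrra, receptors that bind the ERR motif, rose by 0.705 and 0.81 (adjusted p = 0.0162 and 0.0435), and the related coactivator gene Pprc1 fell by 0.63 (adjusted p = 0.0489). Esrrg lost its call in 2 of 9 fits with an array left out, Esrra in 8 and Pprc1 in 7. Nrf1, the gene of the factor whose letters were searched, and Tfam, a factor of mitochondrial DNA, differed by -0.20 and -0.05 (adjusted p = 0.578 and 0.920).

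Markers of the cells in the tissue moved too. In bulk RNA, fewer cells of a type and less RNA per cell cannot be told apart. Of 6 skeletal muscle markers 3 rose over the span, with a median of 0.63: Mb, Ckm and Tnnt3. Ckm lost its call with quantile scaling (adjusted p = 0.0764) and Tnnt3 with cyclic loess or quantile scaling (up to 0.170), which leaves 1 marker with the latter, while 3 rose without P2 replicate 1. Of 5 fibroblast markers 1 fell, Pdgfra (median -0.57, list mean 8.90 to 9.19 at P2 and 8.66 to 8.81 at P14). Of 5 adipocyte markers 2 fell, Adipoq and Cidec (median -0.41, 5.15 to 5.55 at P2 and 4.61 to 5.01 at P14). Over all genes 977 of 22180 fell. The Pdgfra call was lost in 8 of 9 limma fits with an array left out, all but that without P2 replicate 3 (adjusted p up to 0.182). With cyclic loess or quantile scaling 3 fibroblast markers fell, Col1a1 and Col3a1 besides Pdgfra, while 1318 and 1176 of 22180 genes fell. None of the 5 endothelial, 5 macrophage, 4 cardiac or 4 brown adipocyte markers was called (medians 0.435, -0.37, 0.12 and 0.385, limma). With an array left out some were: the endothelial genes Cdh5 (1.11) and Emcn (0.95) without P2 replicate 3, the brown adipocyte gene Dio2 (1.05) without P2 replicate 1, and the cardiac gene Myh6 (0.84) and the macrophage gene Cd68 (-0.94) without P2 replicate 2. On all 9 arrays Cdh5, Emcn and Dio2 were called once dim genes were left out, and Cdh5 also with an intensity trend. The list means of the endothelial, macrophage, cardiac and brown adipocyte markers ran from 6.21 to 6.82, 5.13 to 5.88, 3.11 to 3.40 and 2.72 to 3.25 at P2. At P14 they ran from 6.88 to 7.06, 5.17 to 5.26, 3.29 to 3.36 and 2.98 to 3.93. Of the cardiac markers Nppa and Myl7, and of the brown adipocyte markers Elovl3, were not above the receptor level. The erythroid list had 1 of 5 genes measured, Slc4a1 (-1.64, not called). Slc4a1 was called without P2 replicate 2, at -2.56, and also with dim genes left out or with the replicate number as a block. The part of these shifts in the changes of the respiratory genes was not tested.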

How the data were processed

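The deposited table holds 1 log2 intensity per probe set and array for 41345 probe sets on 9 arrays; the authors made it with RMA, and Partek is also named, per the submitters' processing notes, with no version. RMA corrects background, normalises arrays and summarises probes on a log2 scale. The labels name neither the array platform nor the build behind the probe sets.

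A platform table gave the gene names: 23521 of its 25335 probe sets have 1 symbol, 1814 have several and were left out, and 16010 are unlisted. All 40 members matched RefSeq by Entrez number. In R 4.3.3, limma 3.58.1 was fitted to all 22180 genes, with 1 mean per age and 1 shared spread, no filter, two-sided tests and Benjamini-Hochberg adjustment over all genes. The code was tested on simulated data.

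Given in full were up to 4 subunits of smallest adjusted p per complex, the catalytic subunits Sdha, Sdhb, Cyc1, Uqcrfs1 and Atp5b, Cycs, the c subunit genes and the smallest change of each complex; of other lists, up to 3 called genes per comparison. The isoform partners, Atpif1, Nrf1 and Tfam and the remaining members were added after their values were seen. Members, lists and the receptor level were chosen with earlier results of these data known. Alternatives were 3 scalings, no dim genes, mean of probe sets, an intensity trend, a replicate block and leaving out each array; sets of 3 arrays were too small for an outlier test.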

Additional observations from a re-analysis of the deposited data

How the results depend on the processing

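Counts of members called were 0, 2, 23 and 0 for P7 minus P2, P14 minus P7, P14 minus P2 and the difference between the intervals. With the replicate number as a block (replicate block) they were again 0, 2, 23 and 0. Deviations of same-numbered arrays correlated at -0.029 to 0.057, and those of differently numbered arrays at -0.082 to 0.106. These values show no pairing by number but cannot exclude one. For P7 minus P2 the count was 1 with dim genes left out and 1 with an intensity trend, in both cases Atp5h (adjusted p = 0.0461 and 0.0243, limma). Under these settings 173 of 13239 and 159 of 22180 genes were called in either direction. With an array left out the count was 0 to 1, beside 11 to 206 of 22180 genes. For P14 minus P7 it was 1 with cyclic loess and 1 with quantile normalization, beside 1.08% and 0.996% of all genes that rose. With an array left out it was 0 to 7, beside 0.568% to 2.5% of all genes. For P14 minus P2 it was 17 with each of these scalings, beside 5.48% and 5.44% of all genes that rose. With arrays centred on their medians it was 22, beside 6.22%. With dim genes left out it was 25, beside 13.6% of the genes kept, and with an intensity trend 25, beside 7.23%. With an array left out it ran from 12 to 24, beside 3.77% to 7.52% of all genes. The difference between the intervals gave 0 with any array left out. Over all genes the split for P14 minus P2 was 1470 higher and 977 lower, against 1216 and 1318 with cyclic loess and 1207 and 1176 with quantile normalization; for P14 minus P7 it was 382 and 156, against 240 and 213, and 221 and 192. The median P14 minus P2 change was 0.60 for complex II with cyclic loess, and for complex V 0.409 with cyclic loess and 0.441 with quantile normalization. The P14 minus P7 median of complex V was 0.199 and 0.196 with these scalings. With an array left out the P14 minus P2 median of complex IV ran from 0.812 to 1.447, and the P7 minus P2 median of complex V from 0.102 to 0.381. With 150 bases before the gene start only, the NRF1 letters stood in 9.68% of member promoters in place of 19.4%, the ERR letters in 3.23% in place of 6.45%, the YY1 letters in 3.23% in place of 9.68%, and the ETS letters in the same 9.68%. The cause of these shifts was not tested. No result changed sign past its threshold. Array number and the spread at P2 limit the precision.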

Other observations

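Genes with several probe sets gave unequal changes from P2 to P14. Cox7b gave 1.42 and 1.45, although its second probe set was dim at P2 (2.93 against 7.71). Cox5b gave 1.28 on the bright probe set and 0.53 on one that stayed below the receptor level at each age mean. Atp5d gave 0.80 and 0.67, and Atp5e 0.455 and 0.25. The 2 Cycs probe sets with identical values gave -0.05 from P2 to P7 and 1.55 from P7 to P14, against 0.35 and 0.94 on the probe set used.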
